A study of Drosophila melanogaster with 17 samples.

Results

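The genes described here encode the enzymes that attach glutathione or a sugar to a small molecule: the cytosolic glutathione S-transferases (Gst genes of the D, E, O, S, T and Z classes) and the UDP-glycosyltransferases (Ugt genes). They were taken by name, as the genes with a single symbol of these 2 families in the platform annotation, and each was read from its probe set with the highest mean signal. This gave 45 genes, 25 Gst and 20 Ugt, of 8938 genes measured. RNA of whole adult fly brains (Drosophila melanogaster) was hybridised to 17 Affymetrix arrays, each with RNA of 4 brains from females and males. C17 (3 arrays) lacks moody, whose product is a receptor of the G protein-coupled kind in the glia that form the blood-brain barrier. PMdr65 (3 arrays) lacks Mdr65, which encodes an ABC transporter that pumps drugs out at this barrier. UAS_control (3 arrays) is the line UAS-Mdr65-RNAi, and the labels name no driver for it. WT_old (5 arrays) and WT_new (3 arrays) are wild-type Canton S flies. The flies were adult, with no age in days in the labels. The series describes WT_new as processed on another day than the mutants, WT_old as a control for such batch effects, and UAS_control as close to the mutants in genetic background. For each of these null alleles only 1 line was sampled, so an effect of the allele and one of the rest of that line's genome cannot be told apart.

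Both families belong to what is called phase II of detoxification. A glutathione S-transferase joins the tripeptide glutathione to an electrophilic compound, such as an insecticide or a product of lipid peroxidation, and a UDP-glycosyltransferase transfers a sugar from a UDP-sugar to a lipophilic one. The conjugates are more soluble in water and can be carried out of the cell by ABC transporters. Several members of both families are induced by foreign compounds through the transcription factor cnc.

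The values are log2 signals normalised over all arrays by the authors, and a difference of 1 is a 2-fold change. A gene was called in a contrast at an adjusted p under 0.05 (limma over all probe sets and all 17 arrays, Benjamini-Hochberg adjustment), and called against all 3 control groups where it passed in 1 direction against UAS_control, WT_old and WT_new. The targeted transcripts were low in their own mutants: moody stood at 2.17 in C17, against group means of 9.77 to 11.39 elsewhere, and Mdr65 at 4.69 in PMdr65, against 9.80 to 11.09. A mean under 5 in every group is called dim here, and 8 of the 45 genes were dim (GstD2, GstD7, Ugt303A1, Ugt35E1, Ugt35E2, Ugt36F1, Ugt37A2 and Ugt50B3). Neuronal and glial markers were bright in all groups, for example nSyb with group means of 13.08 to 13.19 and repo with 10.15 to 10.53. They were not all even. The glial marker wrapper was called higher in PMdr65 against all 3 control groups, by 0.41 to 0.72. Its mean was 10.27 in C17 and 10.38 in PMdr65, against 9.66 to 9.97 in the control groups. For the glial marker alrm the group means ran from 11.52 in WT_old to 12.26 in UAS_control. For the neuronal marker elav they ran from 11.58 in WT_new to 11.92 in WT_old. Markers of tissue around the brain were not even either. The log2 summed signal of the measured eye markers, 2 of 7 listed (trp and Arr2), was 7.49 to 8.10 in C17, 7.88 to 8.38 in PMdr65, 11.77 to 12.60 in UAS_control, 7.77 to 8.39 in WT_old and 8.77 to 12.72 in WT_new. For 3 of 6 antennal markers it was 6.77 to 6.81 in C17, 6.65 to 6.82 in PMdr65, 9.0 to 12.32 in UAS_control, 6.44 to 7.04 in WT_old and 7.73 to 10.44 in WT_new. For 4 of 6 muscle markers the sum was 8.44 to 8.79 in C17, 7.22 to 7.83 in PMdr65, 10.04 to 12.38 in UAS_control, 8.20 to 8.54 in WT_old and 9.62 to 9.75 in WT_new. For 5 of 7 fat body markers it was 12.60 to 13.24 in C17, 12.64 to 13.86 in PMdr65, 13.28 to 15.02 in UAS_control, 10.86 to 11.52 in WT_old and 13.49 to 14.76 in WT_new. For the 5 surface glia markers, which include moody and Mdr65, it was 12.15 to 12.31 in C17, 12.50 to 12.57 in PMdr65, 12.28 to 12.47 in UAS_control, 11.59 to 12.05 in WT_old and 11.95 to 12.15 in WT_new. Each mutant's sum thus holds the transcript it lacks. Of the other markers, Gli averaged 7.54 in C17 and 9.74 in PMdr65, against 4.70 to 5.72 in the control groups. For ltl these means were 10.08 and 10.22, against 8.92 to 9.41, and for Cyp4g15 10.40 and 10.16, against 10.09 to 10.71. The part of these tissues in the results below was not tested. In whole brains, fewer cells of a type and less RNA per cell cannot be told apart. The labels do not state that replicate arrays stem from different cultures. The p-values therefore cover the spread among these arrays alone, which may be technical, and the number of arrays limits the precision.

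In the moody null brains, 4 of the 45 genes rose and 4 fell against all 3 control groups. The 4 that rose were GstE1, GstE7, GstO2 and Ugt35C1, and those that fell were GstD9, GstE2, Ugt302K1 and Ugt35B1. Of all genes 4.37% rose and 2.27% fell by this rule. In the Mdr65 null brains GstE1, GstE13, GstO2 and GstS1 rose (4) and GstD9, GstE2, Ugt301D1, Ugt35B1 and Ugt35E2 fell (5), against 5.87% and 3.18% of all genes. GstO2 rose by 1 of its 2 probe sets, and the GstE2 calls lay close to the threshold, as given below. Both mutants were set against the same control arrays. The called share was 17.8% of the 45 genes in C17 and 20.0% in PMdr65, and 6.65% and 9.05% of all genes. After a further quantile normalisation, or centring on array medians, the PMdr65 calls were 6 higher and 4 lower. Leaving out C17 array 3 lowered the 8 calls in C17 to 5. Of the 45 genes, 8 lay above and 5 below all 11 control arrays on every C17 array (7.13% and 3.82% of all genes), and 7 lay above and 5 below on every PMdr65 array (7.51% and 4.77% of all genes).

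**Figure D1:**
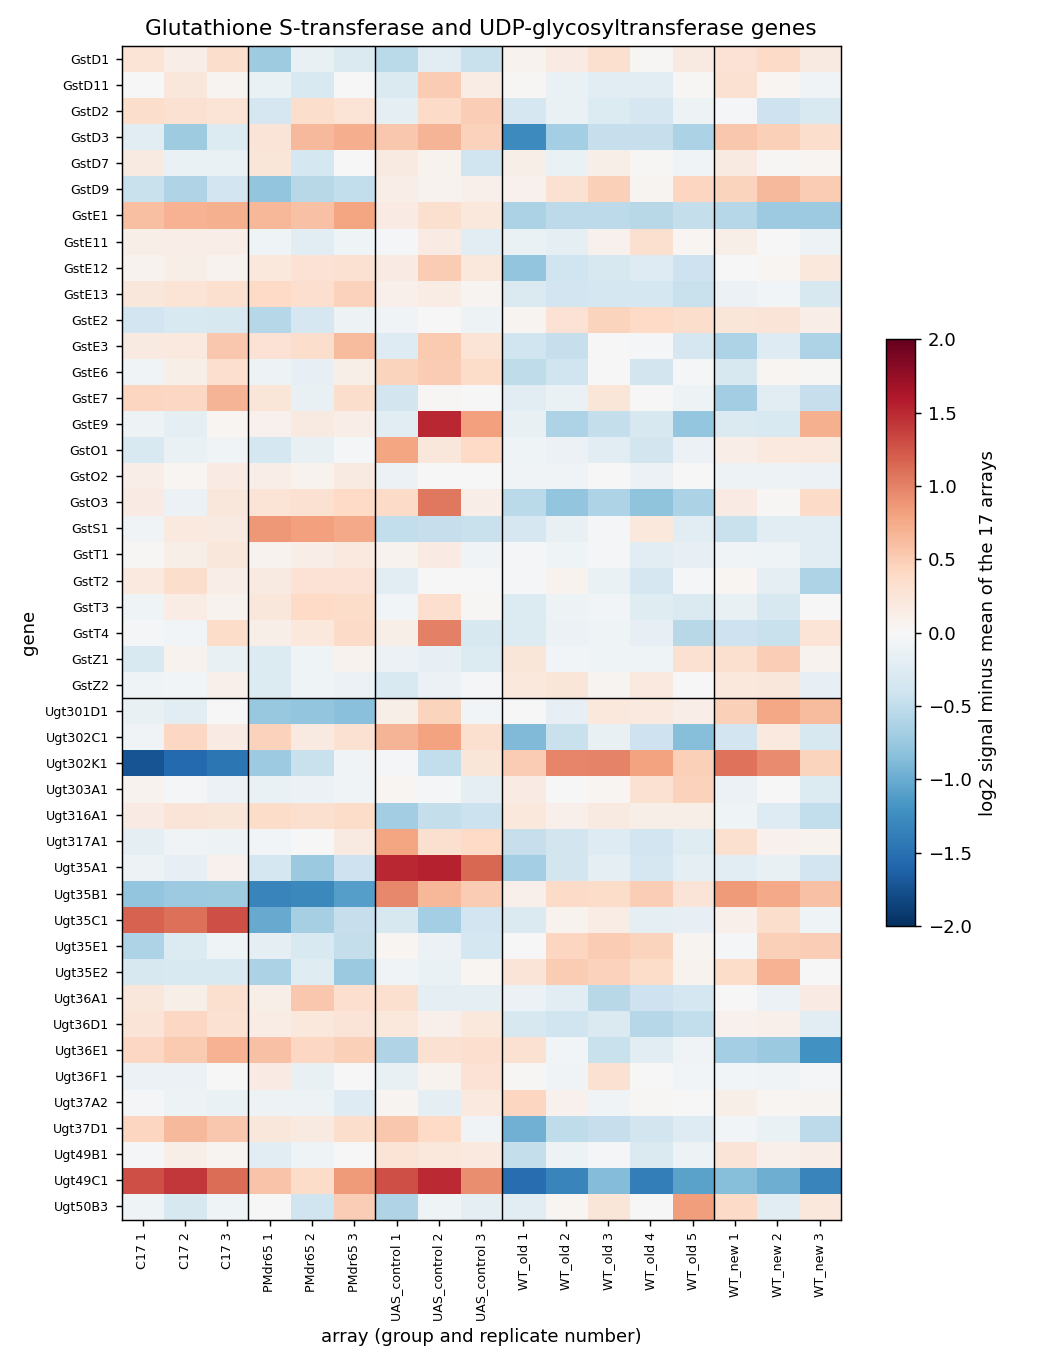
Log2 signal of the 45 genes (rows, Gst above and Ugt below the line) on the 17 arrays (columns, by group), as the difference from the gene's mean over all arrays. Ugt302K1 is lowest on the C17 arrays, Ugt35B1 is low on the arrays of both mutants, and Ugt49C1 is low on the Canton S arrays.

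The 45 genes also differed between the control groups. In UAS_control against WT_new, 9 were higher and 6 lower (33.3%), where 8.41% and 6.4% of all genes were (14.8% together). In UAS_control against WT_old, 19 were higher and 10 lower (64.4%), where 27.3% of all genes were in each direction (54.6% together). Between the Canton S sets, WT_old against WT_new, 4 were higher and 12 lower (35.6%), where 24.1% and 21.0% of all genes were (45.0% together). In C17 against UAS_control, 7 were higher and 8 lower (33.3%), where 23.2% and 20.4% of all genes were (43.5% together). Against WT_old, 17 were higher in C17 and 6 lower (51.1%), where 11.6% and 8.03% of all genes were (19.7% together). Against WT_new, 15 were higher in C17 and 10 lower (55.6%), where 24.1% and 17.9% of all genes were (42.0% together). In PMdr65 against UAS_control, 5 were higher and 11 lower (35.6%), where 21.1% and 20.0% of all genes were (41.1% together). Against WT_old, 18 were higher in PMdr65 and 11 lower (64.4%), where 15.3% and 13.2% of all genes were (28.5% together). Against WT_new, 13 were higher in PMdr65 and 12 lower (55.6%), where 23.6% and 19.6% of all genes were (43.2% together). The share of these genes was above that of all genes against either Canton S set and below it against UAS_control, which is a description and not a test. The range between the highest and the lowest group mean had a median of 0.73 over the 45 genes (0.65 for Gst, 0.89 for Ugt), against 0.43 over all genes. It was at least 1 in 15 of 45 (33.3%), against 11.5% of all genes.

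**Figure D2:**
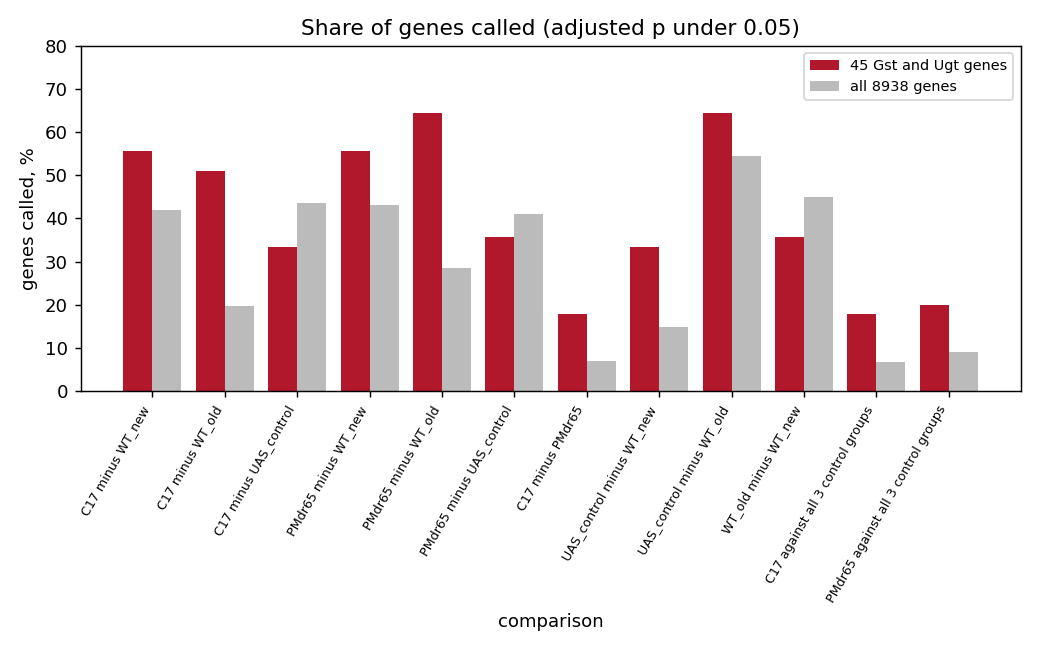
Share of genes called (adjusted p under 0.05, either direction) among the 45 Gst and Ugt genes and among all 8938 genes, in the 10 contrasts and in the count against all 3 control groups. The share of the 45 genes is 17.8% and 20.0% in the counts against all 3 control groups, against 6.65% and 9.05% of all genes.

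Among the 9 epsilon-class genes, a group that includes enzymes acting on insecticides and lipid aldehydes, GstE1 rose in both mutants. Its log2 signals were 9.52, 9.61 and 9.63 on the C17 arrays and 9.58, 9.51 and 9.70 on the PMdr65 arrays. They were 9.08, 9.24 and 9.13 in UAS_control, 8.28, 8.40, 8.39, 8.36 and 8.44 in WT_old, and 8.34, 8.19 and 8.19 in WT_new. The arrays of each mutant lay above every control array, and UAS_control lay between the mutants and Canton S. GstE1 was 1.35- to 2.54-fold higher in C17 and 1.36- to 2.55-fold higher in PMdr65 (limma, highest adjusted p = 0.000202 and 0.00021), and both calls held in 27 of 27 alternative settings. GstE1 was also 1.71-fold higher in UAS_control than in WT_old and 1.88-fold higher than in WT_new (limma, adjusted p = 2.37e-07 and 4.64e-07). Between the mutants GstE1 differed by -0.01 (C17 minus PMdr65, log2 scale, 95% interval -0.16 to 0.14).

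GstE2 went the other way from its neighbour GstE1. It stood at 10.89, 10.97 and 10.96 in C17 and at 10.70, 10.94 and 11.18 in PMdr65, against 11.21, 11.27 and 11.18 in UAS_control, 11.33 to 11.72 in WT_old (median 11.62) and 11.51, 11.54 and 11.41 in WT_new. The C17 arrays lay below all control arrays. The gap to UAS_control was narrow, and PMdr65 array 3 came within rounding of the lowest UAS_control array. The fall was 1.22- to 1.56-fold in each mutant, with a highest adjusted p of 0.0457 in C17 and 0.0495 in PMdr65 (limma). These calls held in 13 and 6 of 27 alternative settings.

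By the rule against all 3 control groups GstE7 rose in C17 and was not called in PMdr65. It was at 6.22, 6.20 and 6.46 in C17 and at 6.02, 5.64 and 6.13 in PMdr65, against 5.42, 5.81 and 5.77 in UAS_control, 5.56, 5.65, 6.02, 5.77 and 5.68 in WT_old and 5.09, 5.58 and 5.32 in WT_new. The C17 arrays were above all control arrays and the PMdr65 arrays overlapped them. The rise in C17 was 1.47- to 1.95-fold (limma, highest adjusted p = 0.0112), and the difference of 0.36 between the mutants did not pass (limma, adjusted p = 0.236). GstE13 was at 9.66, 9.70 and 9.75 in C17 and at 9.83, 9.77 and 9.89 in PMdr65, where it rose. The controls were at 9.53, 9.57 and 9.49 in UAS_control, 9.14, 9.04, 9.07, 9.07 and 8.98 in WT_old, and 9.31, 9.38 and 9.11 in WT_new. The arrays of both mutants lay above every control array for GstE13. The rise in PMdr65 was 1.23- to 1.71-fold (limma, highest adjusted p = 0.00336), while in C17 the contrast with UAS_control missed the threshold (0.17 on the log2 scale, limma, adjusted p = 0.0551).

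In the remaining epsilon genes no call was made against all 3 control groups. GstE3 was higher in both mutants than in either Canton S set, by 0.55 to 0.93 on the log2 scale, with differences of 0.13 and 0.26 from UAS_control that did not pass. GstE12 was higher in both mutants than in WT_old (0.52 and 0.70) and differed from WT_new by 0.01 and 0.19, which did not pass. GstE6 fell in PMdr65 against UAS_control, by 0.49, and was higher in C17 than in WT_old, by 0.39. GstE11 was called in no contrast. GstE9 was uneven in the controls, with 5.42, 7.15 and 6.46 in UAS_control and 5.35, 5.34 and 6.35 in WT_new. UAS_control array 2 and WT_new array 3, where GstE9 was highest in its group, also held the highest antennal and eye sums of their groups. UAS_control array 3, with GstE9 at 6.46, had the lowest antennal sum of its group, 9.0, and an eye sum of 12.33. On UAS_control array 1, with GstE9 at 5.42, these sums were 10.28 and 11.77. The part of antennal and eye tissue in the result was not tested. A second, dim probe set of GstE9 (mean 2.92) did not follow the first.

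In the order of the RefSeq gene table (Release 6 assembly), 6 epsilon genes lie close together, GstE1, GstE2, GstE3, GstE6, GstE7 and GstE9. Within this run GstE1 rose and GstE2 fell in the same brains, so by these calls the neighbours did not move in 1 direction. The GstE2 calls lay close to the threshold and held in 13 (C17) and 6 (PMdr65) of 27 alternative settings. GstE2 was also lower in UAS_control than in WT_old, by 0.36 (limma, adjusted p = 0.00551).

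Of the 6 delta-class genes, the class of the DDT-metabolising enzyme GstD1, only GstD9 was called against all 3 control groups. GstD9 was at 9.83, 9.67 and 9.89 in C17 and 9.48, 9.71 and 9.78 in PMdr65, against 10.40, 10.34 and 10.38 in UAS_control, 10.35, 10.58, 10.75, 10.33 and 10.70 in WT_old and 10.72, 10.92 and 10.78 in WT_new. All arrays of both mutants lay below all 11 control arrays. GstD9 fell by 1.49- to 2.01-fold in C17 (limma, highest adjusted p = 0.000995) and by 1.64- to 2.22-fold in PMdr65 (highest limma adjusted p = 0.000236), and both calls held in 27 of 27 alternative settings.

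GstD1, a neighbour of GstD9, split the groups in another way. Its signals were 10.85, 10.71 and 10.92 in C17, 9.86, 10.42 and 10.28 in PMdr65, 10.04, 10.34 and 10.13 in UAS_control, 10.64, 10.74, 10.89, 10.60 and 10.75 in WT_old, and 10.87, 10.96 and 10.76 in WT_new. PMdr65 and UAS_control were low and overlapped each other, and the other groups were high. GstD1 was 1.56-fold higher in C17 than in PMdr65 (limma, adjusted p = 0.00436), and in UAS_control it fell by 0.55 against WT_old and by 0.69 against WT_new (limma, adjusted p = 0.000767 and 0.00171). GstD3 gave another pattern, with 9.10, 8.60 and 9.04 in C17 and 9.57, 9.96 and 10.04 in PMdr65. It was at 9.84, 9.98 and 9.76 in UAS_control, 8.04, 8.63, 8.85, 8.84 and 8.67 in WT_old and 9.84, 9.79 and 9.66 in WT_new. C17 and WT_old were the low groups and overlapped. GstD3 was 1.92-fold lower in C17 than in PMdr65 (limma, adjusted p = 0.00515) and 2.23-fold lower in WT_old than in WT_new (limma, adjusted p = 9.45e-05). Between the mutants GstD1 and GstD3 therefore differed in opposite directions. Against the control groups, GstD1 was higher in C17 than in UAS_control, by 0.66, and fell in PMdr65 by 0.54 against WT_old and by 0.68 against WT_new. GstD3 fell in C17 by 0.95 against UAS_control and by 0.85 against WT_new, and was higher in PMdr65 than in WT_old, by 1.25. GstD2 and GstD7 were dim. GstD2 was higher in C17 than in WT_old and WT_new, by 0.55 and 0.56, and GstD11 was called in no contrast.

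GstS1, the single sigma-class gene, encodes an enzyme known for its action on the lipid peroxidation product 4-hydroxynonenal and is abundant in flight muscle. It was at 8.36, 8.62 and 8.60 in C17 and at 9.30, 9.25 and 9.18 in PMdr65. In UAS_control it was at 7.94, 7.97 and 7.98, in WT_old at 8.09, 8.28, 8.41, 8.64 and 8.22, and in WT_new at 7.98, 8.22 and 8.21. Every PMdr65 array lay above all other arrays. In PMdr65 the rise of GstS1 was 1.88- to 2.43-fold (highest adjusted p = 1.25e-05, limma), and GstS1 was 1.64-fold lower in C17 than in PMdr65 (limma, adjusted p = 0.000934). In C17 it passed against UAS_control and WT_new but not against WT_old (0.19 on the log2 scale, limma, adjusted p = 0.215). The muscle sum was lower in PMdr65, at 7.22 to 7.83, than in any control group. Among its markers, Act79B fell by 1.54 in PMdr65 against WT_old. Act88F, up and Mlc2 averaged 5.42, 4.85 and 4.29 in PMdr65, against 5.57, 4.86 and 3.29 in WT_old. The part of muscle tissue in the GstS1 result was not tested. The GstS1 probe set is of a kind (s_at) whose probes can match several transcripts. Those of Ugt36E1, Ugt37D1 and Ugt50B3, described below, are of the same kind.

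Of the 3 omega-class genes GstO2 was called higher in both mutants at its brighter probe set, with 9.72, 9.63 and 9.76 in C17 and 9.73, 9.67 and 9.78 in PMdr65. The controls were at 9.48, 9.60 and 9.58 in UAS_control, 9.47 to 9.59 in WT_old (median 9.53) and 9.47 to 9.50 in WT_new. The mutant arrays were above all control arrays by a narrow gap. The rise was 0.15 to 0.21 in C17 and 0.17 to 0.23 in PMdr65 (limma, highest adjusted p = 0.0494 and 0.0297), and it held in 3 and 20 of 27 alternative settings. A second GstO2 probe set went the other way, where GstO2 fell by 0.78 in C17 and by 0.61 in PMdr65 against WT_new (limma, adjusted p = 1.15e-05 and 8.26e-05). With both probe sets averaged, GstO2 was lower in both mutants than in WT_new and UAS_control, so no direction can be given for this gene. GstO1 fell by 0.64 in each mutant against UAS_control and by 0.35 in each against WT_new, and differed by 0.01 from WT_old. GstO3 was at 6.59 to 6.85 in WT_old, below every other array of the series, whose lowest was 7.28. Among the 4 theta-class and 2 zeta-class genes none was called against all 3 control groups. GstT2 lay above all control arrays in both mutants, with 8.20, 8.35 and 8.14 in C17 and 8.18, 8.29 and 8.30 in PMdr65, and controls of 7.38 to 8.08, but the contrast with UAS_control did not pass in either (limma, adjusted p = 0.102 in C17 and 0.0789 in PMdr65). GstT1 was higher in both mutants than in either Canton S set by 0.22 to 0.26, and GstZ1, whose class includes maleylacetoacetate isomerase of tyrosine breakdown, fell by 0.42 in C17 and by 0.39 in PMdr65 against WT_new. GstT3 was higher in PMdr65 than in WT_old and WT_new, by 0.53 and 0.48, and GstZ2 fell by 0.30 in PMdr65 against WT_old. GstT4 was called in no contrast of a mutant with a control group.

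**Figure D3:**
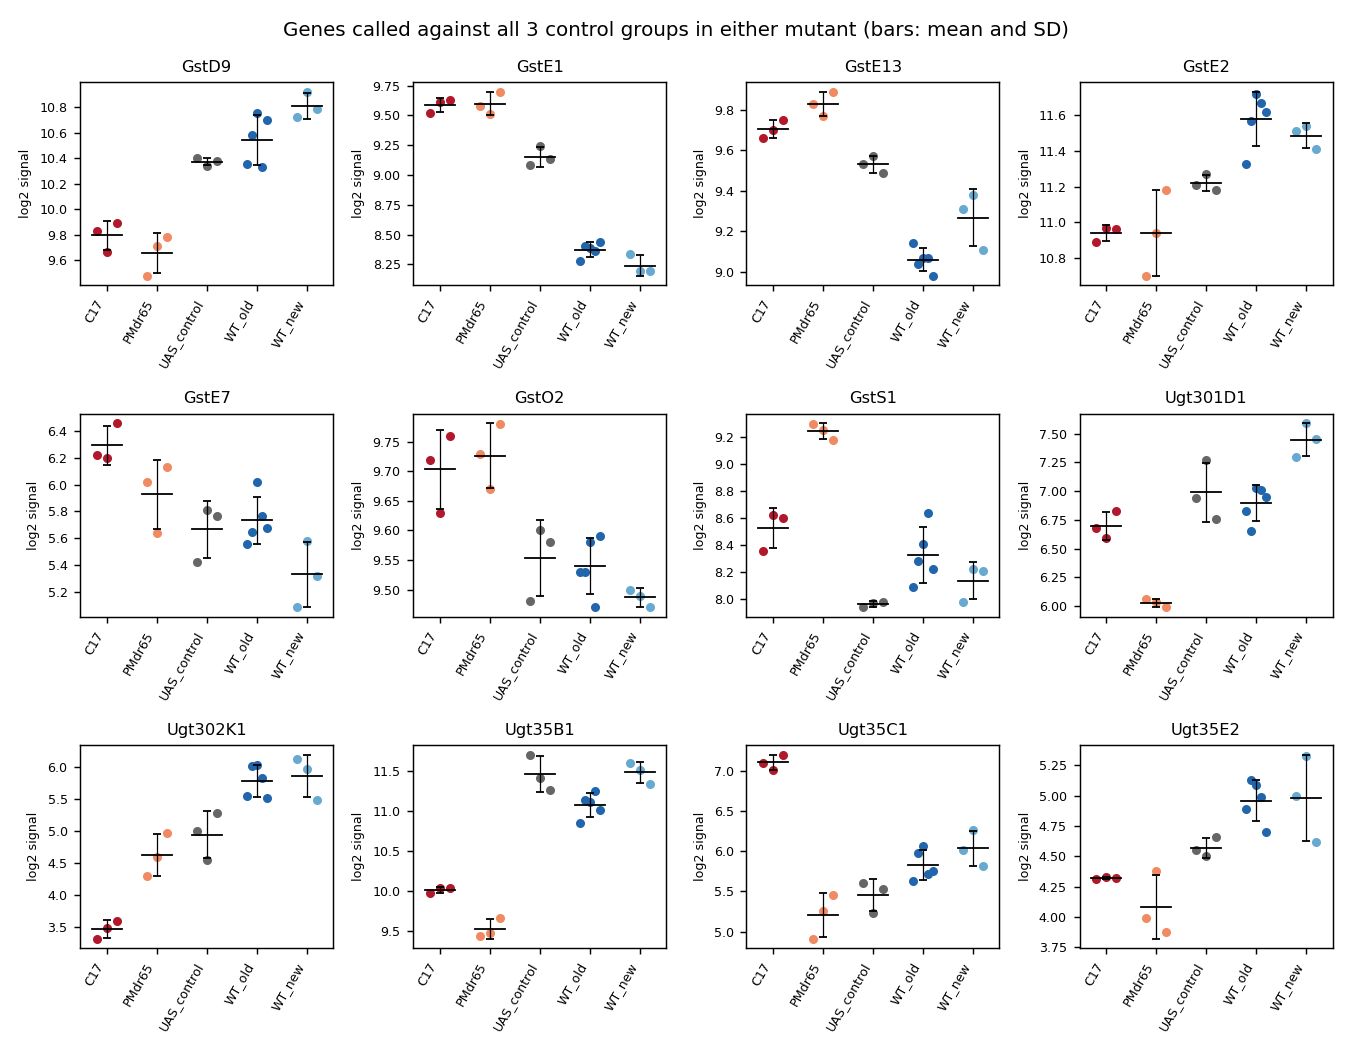
Log2 signal on each array of the 12 genes called against all 3 control groups in C17 or PMdr65, by group, with the mean and SD. The mutants share low GstD9 and Ugt35B1 and high GstE1, while GstS1 is highest in PMdr65 and Ugt35C1 in C17. Each panel has its own axis.

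Among the genes called against all 3 control groups, those with the largest folds were UDP-glycosyltransferases of the Ugt35 and Ugt302 families, Ugt302K1, Ugt35B1 and Ugt35C1. In the gene order, 8 glycosyltransferase genes lie close together (Ugt35C1, Ugt302K1, Ugt302C1, Ugt35E1, Ugt35E2, Ugt35B1, Ugt35A1 and Ugt303A1), and they changed in different directions. Ugt35B1, known from the fly's antenna, fell in both mutants. It was at 9.97, 10.03 and 10.04 in C17 and 9.43, 9.47 and 9.66 in PMdr65, against 11.71, 11.42 and 11.27 in UAS_control, 10.85, 11.14, 11.12, 11.25 and 11.01 in WT_old and 11.60, 11.52 and 11.34 in WT_new. No mutant array came near a control array. Ugt35B1 fell by 2.08- to 2.78-fold in C17 and by 2.94- to 3.91-fold in PMdr65 (highest limma adjusted p = 3.79e-06 and 4.13e-08), in 27 of 27 alternative settings. It was also higher in C17 than in PMdr65, by 0.49 on the log2 scale (limma, adjusted p = 0.0159). The antennal sum, of 3 of 6 listed markers, was as low in WT_old (6.44 to 7.04) as in the mutants. Against WT_old Ugt35B1 fell by 1.06 in C17 and by 1.55 in PMdr65. The part of antennal tissue in this result was not tested.

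Ugt35C1 was called against all 3 control groups in C17 and not in PMdr65, and it differed between the mutants. Its signals were 7.10, 7.01 and 7.20 in C17 and 4.91, 5.25 and 5.46 in PMdr65. The controls were at 5.60, 5.23 and 5.53 in UAS_control, 5.63, 5.98, 6.06, 5.72 and 5.75 in WT_old and 6.02, 6.26 and 5.82 in WT_new. C17 stood above all other arrays, and PMdr65 overlapped UAS_control. Ugt35C1 rose 2.10- to 3.15-fold in C17 (limma, highest adjusted p = 6.97e-05). In PMdr65 it fell by 0.62 against WT_old and by 0.83 against WT_new, and its difference of -0.25 from UAS_control did not pass (limma, adjusted p = 0.215). The difference of C17 from PMdr65 was 3.73-fold (limma, adjusted p = 7e-07), the largest of the 45 genes in that contrast. Ugt302K1, which lies beside it, fell in C17. It was at 3.32, 3.49 and 3.60 in C17 and 4.31, 4.60 and 4.97 in PMdr65, against 5.01, 4.55 and 5.29 in UAS_control, 5.55, 6.02, 6.04, 5.84 and 5.52 in WT_old and 6.13, 5.98 and 5.49 in WT_new. The C17 arrays lay below all others. Ugt302K1 fell by 2.79- to 5.27-fold in C17 (limma, highest adjusted p = 9.4e-05). Its C17 mean of 3.47 was a low signal, under the level of 5 used here for dim genes, and the fold was measured against that low signal. In PMdr65 it overlapped UAS_control and was below Canton S, where it fell by 1.17 against WT_old and by 1.24 against WT_new.

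Ugt35E2, a dim gene, was at 4.31, 4.33 and 4.32 in C17 and 3.99, 4.38 and 3.88 in PMdr65, against 4.55, 4.50 and 4.66 in UAS_control, 4.70 to 5.13 in WT_old (median 4.99) and 5.0, 5.33 and 4.62 in WT_new. The arrays of both mutants were below all control arrays. The fall in PMdr65 was 1.40- to 1.87-fold (limma, highest adjusted p = 0.0246), and in C17 the difference of -0.25 from UAS_control did not pass (limma, adjusted p = 0.219). Ugt35A1, next to Ugt35B1, was high in a single control group. It was at 5.44, 5.38 and 5.63 in C17, 5.19, 4.80 and 5.12 in PMdr65, 7.04, 7.08 and 6.68 in UAS_control, 4.86 to 5.36 in WT_old and 5.31, 5.39 and 5.15 in WT_new. The UAS_control arrays lay above all others, by 3.35-fold over WT_old and 3.14-fold over WT_new (limma, adjusted p = 9.34e-08 and 1.54e-06). Eye, antennal and muscle sums were high in the same group. WT_new array 3, whose eye sum of 12.72 was the highest of all arrays, had a Ugt35A1 signal of 5.15, the lowest of WT_new. The part of eye, antennal and muscle tissue in this result was not tested. Ugt302C1 was higher in both mutants than in WT_old, by 0.72 and 0.86, and its differences of -0.43 and -0.29 from UAS_control did not pass. Ugt303A1 and Ugt35E1 were dim. Ugt35E1 was lower in both mutants than in either Canton S set, by 0.61 to 0.64 on the log2 scale, and Ugt303A1 fell by 0.30 in PMdr65 against WT_old.

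In the other glycosyltransferases Ugt301D1 fell in PMdr65. It was at 6.68, 6.59 and 6.83 in C17 and 6.06, 6.04 and 5.99 in PMdr65, against 6.94, 7.27 and 6.76 in UAS_control, 6.83, 6.65, 7.03, 7.01 and 6.95 in WT_old and 7.30, 7.59 and 7.45 in WT_new. The PMdr65 arrays were the lowest of the series and C17 overlapped the controls. Ugt301D1 fell by 1.82- to 2.67-fold in PMdr65 (highest limma adjusted p = 4.54e-05), and was 1.59-fold higher in C17 than in PMdr65 (limma, adjusted p = 0.00294). Ugt316A1 was at 8.19, 8.28 and 8.27 in C17 and 8.39, 8.34 and 8.39 in PMdr65, with 7.33, 7.55 and 7.60 in UAS_control, 8.13 to 8.23 in WT_old and 7.94, 7.77 and 7.53 in WT_new. It was higher in both mutants than in UAS_control and WT_new, by 0.50 to 0.88, while the differences of 0.07 and 0.20 from WT_old did not pass. Ugt36E1 was higher in C17 than in WT_new by 1.42 and in PMdr65 than in WT_new by 1.37, and its arrays in both mutants lay above every control array. The contrasts with UAS_control, where Ugt36E1 spread over 4.72, 5.63 and 5.67, missed the threshold (limma, adjusted p = 0.0695 and 0.106). Its neighbour Ugt36D1 was higher in C17 than in either Canton S set, by 0.74 against WT_old and 0.33 against WT_new, and higher in PMdr65 than in WT_old, by 0.63. Ugt36F1 was dim. Ugt36A1 was higher in both mutants than in WT_old, by 0.55 and 0.66. Ugt37D1 was higher in both mutants than in either Canton S set, by 0.49 to 1.05, with differences of 0.25 and -0.04 from UAS_control that did not pass. Ugt317A1 fell by 0.62 in C17 and by 0.46 in PMdr65 against UAS_control, where its arrays were at 7.09, 6.63 and 6.71, and it was higher in PMdr65 than in WT_old, by 0.39. Ugt49B1 fell in PMdr65 by 0.33 against UAS_control and by 0.27 against WT_new. Ugt37A2 and Ugt50B3 were dim and were called in no contrast of a mutant with a control group.

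Some of these genes differed between the Canton S flies and all other lines. This was looked at after the values were seen, and the contrasts share arrays. Ugt49C1 was at 7.13, 7.25 and 6.96 in C17, 6.42, 6.21 and 6.69 in PMdr65 and 7.13, 7.33 and 6.78 in UAS_control, against 4.32, 4.53, 4.98, 4.46 and 4.77 in WT_old and 4.99, 4.86 and 4.52 in WT_new. The groups outside Canton S did not come within 1 log2 unit of it. UAS_control was higher by 2.47 than WT_old and by 2.29 than WT_new (limma, adjusted p = 3.65e-08 and 6.48e-07), and C17 by 2.50 and 2.32. Against UAS_control, Ugt49C1 differed by 0.03 in C17 and fell by 0.64 in PMdr65 (limma, adjusted p = 0.0119). In all, GstE1, GstE3, GstE13 and Ugt49C1 were called higher in C17, PMdr65 and UAS_control against each of WT_old and WT_new, which is 4 of 45 genes (8.89%), against 1.4% of all genes. Ugt302K1 was called lower in these 6 contrasts, 1 of 45 (2.22%), against 0.951% of all genes. Without overlap of arrays, GstE1, GstE13, Ugt36D1 and Ugt49C1 lay above Canton S (8.89%, against 1.71% of all genes), Ugt36D1 by a gap within rounding. GstE2 and Ugt302K1 lay below it (4.44%, against 1.22%). The arrays of GstE3 overlapped. Without the UAS_control arrays, 12 of the 45 genes were called higher and 6 lower in C17 against both Canton S sets, where 7.43% and 4.75% of all genes were (12.2% together). In PMdr65 10 were called higher and 9 lower, where 10% and 6.75% of all genes were (16.8% together). The counts against all 3 control groups were 8 and 9.

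Between the Canton S sets, which share a strain, GstD3 fell by 1.16 and GstO3 fell by 0.86 in WT_old, the largest falls of the 45 genes in that contrast (limma, adjusted p = 9.45e-05 and 0.00051). Ugt36E1 was the gene with the largest rise, 0.78 (limma, adjusted p = 0.00569), followed by Ugt316A1 with 0.43 and GstE7 with 0.41. The fat body sum was lower in WT_old than in WT_new on every array. Ugt301D1 fell by 0.55 and GstE12 fell by 0.51 in WT_old. Ugt317A1 lay at 5.84 to 6.06 in WT_old and 6.37 to 6.62 in WT_new. In UAS_control GstO3 was at 7.78, 8.44 and 7.52 and GstT4 at 6.73, 7.62 and 6.30, with the highest value of each on array 2, which had the highest muscle and antennal sums. The part of that tissue was not tested. Without UAS_control array 2 the 15 genes called in UAS_control against WT_new became 8, and they became 6 with array weights and 4 with only those groups fitted.

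**Figure D4:**
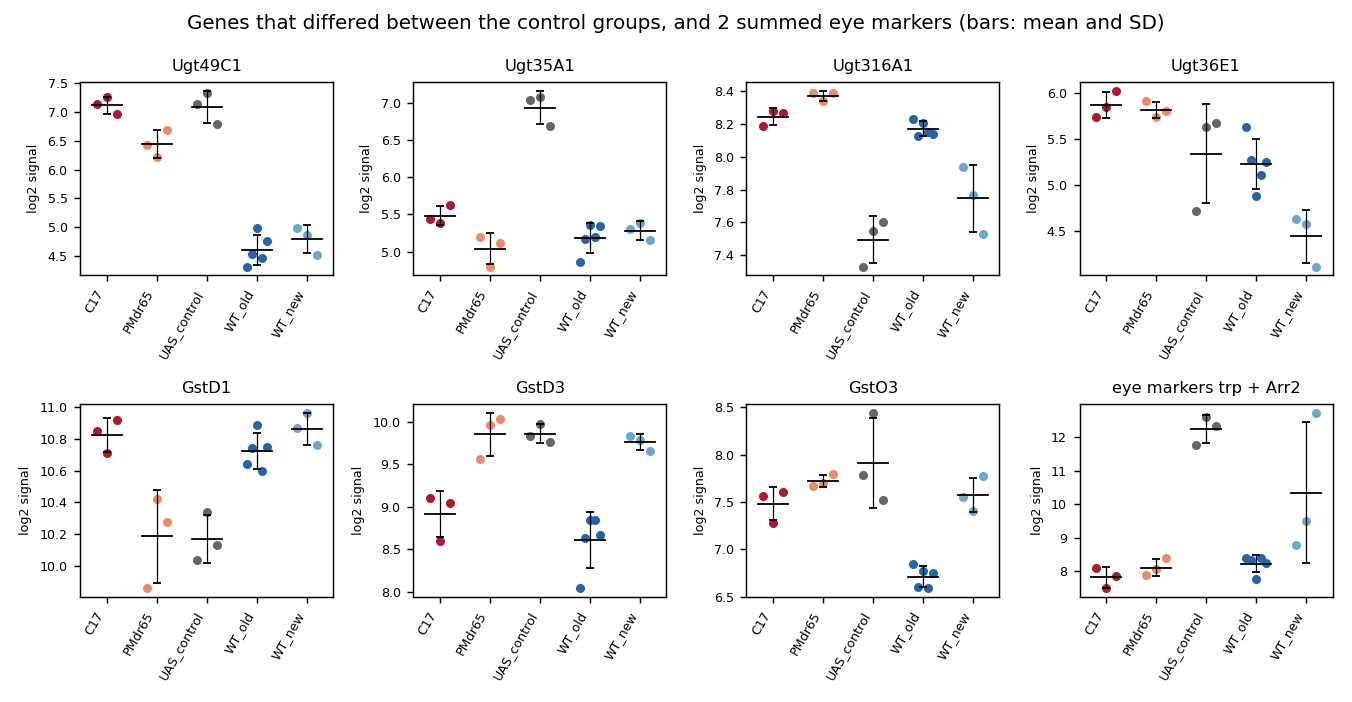
Log2 signal on each array of 7 genes that differed between control groups, and the log2 summed signal of the eye markers trp and Arr2 (last panel), by group, with the mean and SD. Ugt49C1 is low in both Canton S sets, Ugt35A1 is high in UAS_control alone, and the eye sum is high in UAS_control and on WT_new array 3. Each panel has its own axis.

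Set directly against each other, the mutants differed in 8 of the 45 genes (17.8%), against 6.95% of all genes. Higher in C17 were Ugt35C1, Ugt301D1, Ugt49C1, GstD1 and Ugt35B1 (5, where 3.71% of all genes were), and lower were Ugt302K1, GstD3 and GstS1 (3, against 3.23%). In Ugt49C1 the difference was 0.67 (limma, adjusted p = 0.0351) and in Ugt302K1 it was -1.16 (limma, adjusted p = 0.00313). For GstD9, which fell in both, the log2 difference was 0.14 with a 95% interval of -0.10 to 0.38. For GstE13 it was -0.13 with an interval of -0.28 to 0.02, and for GstE7 0.36 with an interval of 0.03 to 0.70. These intervals are not adjusted for the number of genes.

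**Figure D5:**
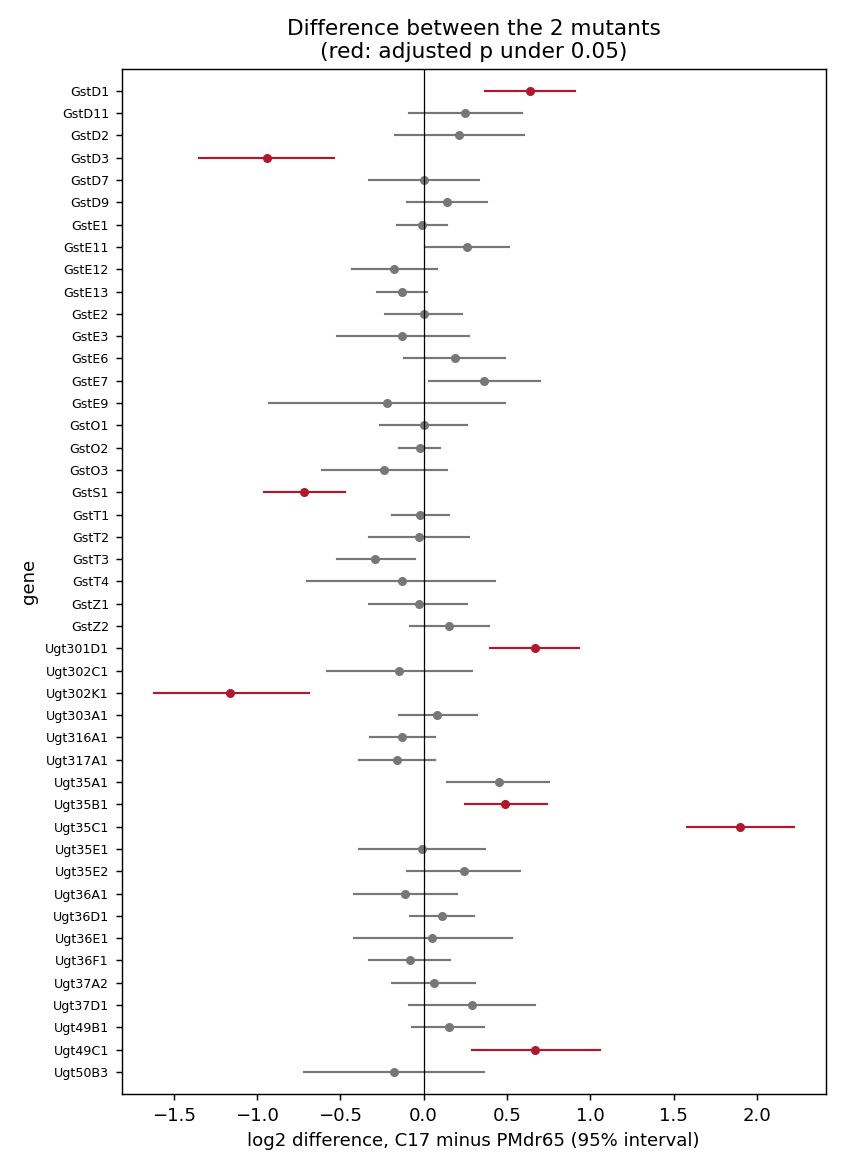
Log2 difference of C17 minus PMdr65 for the 45 genes, with its 95% interval from the limma fit, not adjusted for the number of genes. Red marks the 8 genes with an adjusted p under 0.05, of which Ugt35C1, at 1.90, is the farthest from 0.

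Of 30 other listed genes for glutathione supply, related transferases, UDP-sugar supply, regulation and efflux of conjugates, 23 were measured. In C17, 2 of the 23 rose and 0 fell against all 3 control groups, where 4.37% and 2.27% of all genes did. In PMdr65, 2 rose and 1 fell, where 5.87% and 3.18% of all genes did. Counts this small are given as a description only. Keap1, the inhibitor of cnc, rose in both. It was at 8.28 to 8.46 in C17 and 8.26 to 8.38 in PMdr65, against 7.76 to 7.94 in UAS_control, 7.81 to 8.23 in WT_old and 7.95 to 8.11 in WT_new. The changes were 0.31 to 0.49 in C17 and 0.27 to 0.44 in PMdr65 (limma, highest adjusted p = 0.0142 and 0.0244). The partner of cnc, maf-S, fell in PMdr65 by 0.42 to 0.54, at 9.90 to 10.12 against control arrays of 10.27 to 10.68 (limma, highest adjusted p = 0.00352). The conjugate exporter MRP rose in C17 by 0.19 to 0.38 (limma, highest adjusted p = 0.0437). CG10226, an ABC transporter gene beside Mdr65, rose in PMdr65 by 1.07 to 2.18 (limma, highest adjusted p = 0.000405). The mean signal of cnc was 8.78 in C17 and 8.79 in PMdr65, against 8.63 in UAS_control, 8.87 in WT_old and 8.50 in WT_new, with no call against all 3. The catalytic subunit gene of glutathione synthesis, Gclc, averaged 10.28 in C17 and 10.23 in PMdr65, against 10.17 in UAS_control, 9.94 in WT_old and 9.96 in WT_new. The eye pigment enzyme gene se, of the omega class, averaged 4.88 in C17 and 4.98 in PMdr65. In the control groups se averaged 7.30 in UAS_control, 5.18 in WT_old and 6.52 in WT_new. Its high groups were those of the high eye sums, and on the WT_new arrays se ranged from 5.43 to 8.58. The part of eye tissue in this result was not tested.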

How the data were processed

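Per the labels' protocols, RNA was isolated with Ambion RNAqueous Micro columns with amplification by the NuGEN Ovation FFPE WTA System V3. The deposited values are log2 signals per probe set, and the submitters' processing notes name affy, RMA and limma. The series table holds 13290 probe sets. The authors' unfiltered table holds 18769, and the rule that left out 5479 is not given in the sources used here. In the platform annotation 10243 probe sets had 1 symbol, 310 several and 2737 none, and a gene was read from its brightest probe set. All 45 genes matched the RefSeq gene table. One linear model was fitted to the 13290 probe sets and 17 arrays (limma 3.58.1, R 4.3.3, 5 groups, 10 contrasts, Benjamini-Hochberg within a contrast, threshold 0.05, 95% intervals unadjusted). The genes, the gene and marker lists and the tests were chosen with earlier results of these data known. Genes called against all 3 control groups in a mutant were singled out by rule, with their array values or ranges given. The rule also took the 3 higher and 3 lower called genes with the largest change, in each contrast between control groups and between the mutants. The brightest gene of each class was added. For some genes of these later sets only differences, part of the values or calls were given. Genes with a mean under 5 in every group are called dim. Tested on data simulated for C17 over 13290 probe sets, the rule against all 3 control groups called 45 of 50 genes raised by 1, 47 of 50 lowered by 1, 28 of 50 raised by 0.5, 23 of 50 lowered by 0.5 and 0 of 13090 unchanged ones. In the simulation only these few probe sets were changed, and only in C17, while 42.0% of all genes were called in C17 against WT_new. The adjusted p depends on the share of changed genes, so these rates need not hold in the data. How the rule against all 3 control groups behaves where these groups differ from each other was not tested. Alternatives were other scalings, filters, weights, variance models, probe set averaging, a replicate block and each array left out.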

Additional observations from a re-analysis of the deposited data

Results flagged for a closer look

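GstD3 on WT_old array 1 was at 8.04, apart from the other WT_old arrays at 8.63 to 8.85 (ratio of gap to range 0.73, against a critical value of 0.71). Chance alone flags about 1 in every 20 genes tested this way, and 28 genes were tested. In the direct contrast of C17 minus PMdr65, limma's adjusted p passed for 8 genes. The log2 difference was 1.90 for Ugt35C1, 0.67 for Ugt301D1, 0.67 for Ugt49C1, 0.64 for GstD1 and 0.49 for Ugt35B1. It was -1.16 for Ugt302K1, -0.94 for GstD3 and -0.72 for GstS1.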

How the results depend on the processing

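Over 28 settings, 4072 of 4421 differences of single genes kept their direction and side of the threshold, 273 lost the call, 71 gained one and 5 reversed. The 5 were GstO2 with its probe sets averaged, at -0.28 (C17 minus WT_new), -0.25 (C17 minus UAS_control), -0.19 (PMdr65 minus WT_new), -0.16 (PMdr65 minus UAS_control) and -0.38 (WT_old minus WT_new), by averaging with a probe set that differed the other way. With the dimmest 40% of probe sets left out, 22 of the 45 genes were tested. Counts then were 14 and 13 in C17 against WT_new and WT_old, 16, 17 and 10 in PMdr65 against WT_new, WT_old and UAS_control, 4 in C17 against PMdr65, 7 and 17 in UAS_control against WT_new and WT_old, and 9 in WT_old against WT_new. The 15 calls in UAS_control against WT_new became 6 with array weights and 4 with only those groups fitted, and the cause was not tested. With the UAS_control arrays left out, chosen after seeing the data, 18 genes were called in C17 and 19 in PMdr65 against both Canton S sets. Leaving out one array at a time gave 5 to 8 calls against all 3 control groups in C17 (lowest without C17 array 3) and 6 to 10 in PMdr65 (lowest without PMdr65 array 1). In C17 it gave 20 to 26 against WT_new, 16 to 24 against WT_old and 13 to 17 against UAS_control. In PMdr65 it gave 21 to 26, 21 to 30 and 13 to 16 against the same groups. It gave 6 to 9 for C17 against PMdr65, 8 to 16 and 23 to 30 for UAS_control against WT_new and WT_old, and 11 to 16 for WT_old against WT_new. With the replicate number as a block, 7 genes were called against all 3 control groups in each mutant. Taken over all groups the numbers showed no general pairing: 3 of 30 same-numbered pairs correlated above 0.1, and 4 of 15 arrays correlated best with their own number. Between C17 and PMdr65 the same-numbered pairs correlated at 0.1, 0.05 and 0.12, and the differently numbered ones at -0.09 to -0.01. The pooled counts cannot exclude pairing between single groups. Dim probe sets, 3 to 5 arrays a group and 1 line per allele limit these results.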
